A study of Mus musculus with 24 samples.

Results

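SMB21, SMB55 and SMB56 are 3 mouse cell lines, each grown out of a spontaneous medulloblastoma, a tumour of the cerebellum, and their untreated parental cultures were set against normal mouse cerebellum. The arrays were chosen by their titles: the 8 arrays of the 3 lines that carry no growth factor or RAS label, and the 3 arrays of normal cerebellum, together 11 of the 24 arrays of the series. The parental group holds 4 SMB21 arrays and 2 each for SMB55 and SMB56. The labels give these cells as Ptch1 mutant, from tumours of adult Ptch+/- mice, dissociated with accutase and kept as neurospheres in DMEM/F12 with B27 supplement, and they name no other agent. The normal group holds 2 wild-type cerebella at postnatal day 6 (P6) and 1 wild-type adult cerebellum, snap-frozen as whole tissue. The age label of 1 P6 sample disagrees with its title, which was taken as its age. Genotype, tumour origin and growth in culture come together in the SMB arrays and cannot be told apart. The 3 primary medulloblastomas of the series entered the model only to estimate the spread.

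Granule neuron precursors divide in the outer layer of the cerebellum after birth, under Sonic hedgehog (Shh) released by Purkinje cells. Shh binds the receptor Patched 1 (Ptch1), which otherwise holds Smoothened (Smo) inactive, and Smo then lets the Gli transcription factors switch on their targets. Loss of Ptch1 leaves the pathway on, and in mice this gives medulloblastomas of cells that resemble the precursors. At P6 the cerebellum is rich in dividing precursors, whereas the adult organ has none and is made of mature granule neurons, Purkinje cells, glia and vessels, so the levels of genes given in full are shown for both ages.

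Values are log2(intensity + 16) of 1 Affymetrix probe set per gene, and every difference is SMB minus cerebellum on that scale. The lowest value in these arrays was 4.70 and the median level of the 12394 genes was 8.35. Levels near 5 are therefore at the bottom of the range, where folds are compressed. Arrays of a line were averaged, so the tests compare 3 lines with the cerebella. Against the 3 cerebella a gene was called at a limma adjusted p under 0.05 over all genes. A second contrast used the 2 P6 cerebella, and values against the adult come from 1 array and carry no test.

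Some libraries stood apart from their own line. The 2 SMB56 arrays correlated at 0.944 over genes, with 383 genes more than 4-fold apart, whereas SMB55 replicate 2 and SMB56 replicate 2 correlated at 0.980, above the SMB55 pair at 0.978. SMB21 replicate 1 had 728 genes more than 2-fold from the other SMB21 arrays, against 38 to 78 genes for each of those. The Y-linked genes Eif2s3y, Kdm5d and Uty lay between 7.97 and 9.54 in SMB21 replicate 1 and between 4.93 and 5.15 in the other SMB21 arrays, and between 4.92 and 5.16 in SMB55. In SMB56 replicate 1 Eif2s3y lay at 4.93 while Kdm5d and Uty lay at 8.73 and 8.65, and in SMB56 replicate 2 the same genes lay at 9.23, 8.25 and 7.82. Whether cultures or labels were exchanged between lines cannot be told from the files, and the labels were followed. The P6 pair correlated at 0.997 with 2 genes more than 4-fold apart. Parental arrays correlated with the P6 arrays at 0.890 to 0.925 and with the adult array at 0.793 to 0.832. Without SMB21 replicate 1 the comparison with all cerebella called 2658 genes, without SMB56 replicate 1 it called 2740 and without SMB56 replicate 2 it called 2396, against 2800 with every array. Without either P6 array the second comparison rests on a single P6 sample and calls 970 or 981 genes in place of 3176, so counts against P6 are given below with those limits.

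Of 12394 genes, 1614 (13%) rose in the SMB lines and 1186 (9.57%) fell against normal cerebellum. The counts of each gene list below are to be read beside these shares. The falls were deeper than the rises. Among called genes 403 were lower by at least 4-fold and 74 higher, and 81 were lower by at least 16-fold and 2 higher. The median difference was 0.90 for the genes that rose and -1.40 for those that fell. Each of these genes lay on the same side of the cerebellum mean in all 3 line means, which calling genes from those same means makes likely. Every parental array lay above every cerebellum for 1346 of the genes that rose and below for 1046 of those that fell. Over all genes, called or not, 1964 lay above and 1466 below in this way. Against P6 alone 1813 genes (14.6%) rose and 1363 (11%) fell. Of these, 1350 rose and 1032 fell in both comparisons, and 0 were called in opposite directions. Centring every array on its median over all probe sets moved the split to 1020 higher and 1463 lower, or 41.1% higher in place of 57.6%.

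**Figure D1:**
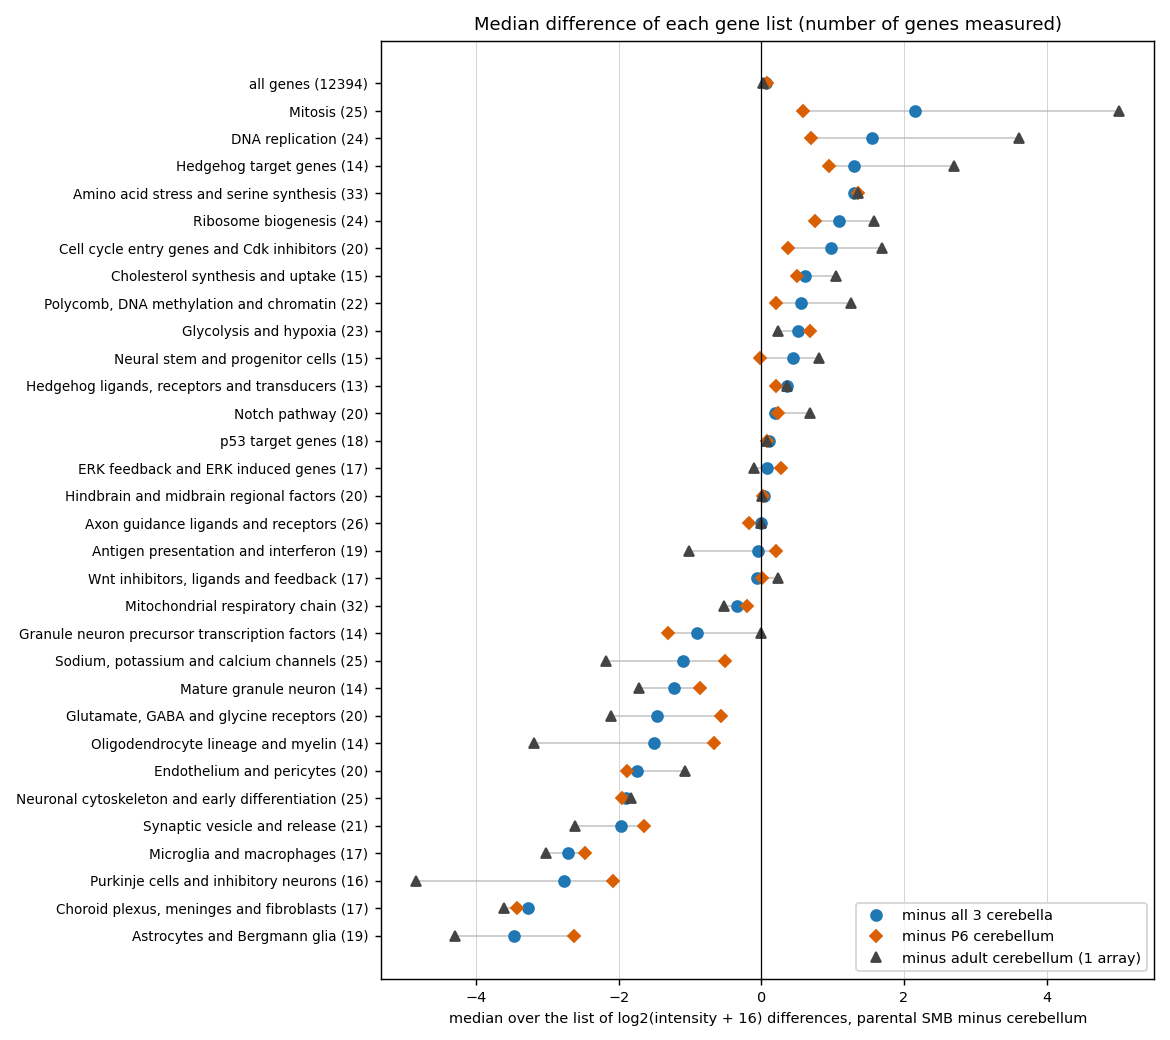
Median difference in log2(intensity + 16), SMB minus cerebellum, of 31 gene lists (the red blood cell list of 2 genes is left out) and of all genes. Circles are against all 3 cerebella, diamonds against P6 and triangles against the adult array. Amino acid stress and ribosome biogenesis genes lie above the all-gene median of 0.07 against each cerebellum group, glial, vascular and Purkinje lists lie far below it, and mitosis genes lie near 5 against the adult and at 0.59 against P6.

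The Hedgehog pathway list held 13 measured ligands, receptors and transducers, and 4 of them rose against normal cerebellum while 0 fell, with a median difference of 0.36 against 0.07 over all genes. Over all genes 13% rose and 9.57% fell. The 4 were Gli1, Boc, Smo and Cdon, and the same 4 rose against P6, where 14.6% of all genes rose and 11% fell. Gli1, a Gli activator that is also a target of the pathway, measured 10.38, 10.25, 9.88 and 9.51 in the SMB21 arrays, 9.34 and 9.81 in SMB55 and 8.62 and 9.79 in SMB56, against 8.08 and 7.84 in the P6 cerebella and 6.87 in the adult. Every parental array lay above every cerebellum, and SMB56 replicate 1 was the lowest of the 8. The difference was 2.00 (SE 0.36, adjusted p = 0.00892), and 1.63 (SE 0.30, adjusted p = 0.00937) against P6. Boc, a cell-surface co-receptor that helps present the ligand to Ptch1, measured 10.71, 10.33, 10.56 and 10.45 in the SMB21 arrays, 10.46 and 10.94 in SMB55 and 10.83 and 10.92 in SMB56, against 9.12 and 8.84 in the P6 cerebella and 8.41 in the adult. The arrays did not overlap, and the difference was 1.90 (SE 0.20, adjusted p = 0.00102). Another Boc probe set differed by 1.77, and the remaining set, near the bottom of the range, by -0.05. Smo, the transducer held off by Ptch1, lay between 10.90 and 11.79 (median 11.43) in the parental arrays, against 10.31 and 10.15 in the P6 cerebella and 9.79 in the adult, again without overlap. Its difference was 1.25 (SE 0.25, adjusted p = 0.0133), and 1.10 (SE 0.27, adjusted p = 0.0256) against P6. Cdon, a co-receptor related to Boc, differed by 0.36 (SE 0.11, adjusted p = 0.0472), and that call was lost in 12 of 19 alternative settings, each line and each P6 array left out among them.

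The other members of the pathway did not pass. Ptch1 itself, the receptor mutated in these mice, measured 11.93, 11.39, 11.37 and 10.84 in the SMB21 arrays, 11.74 and 12.08 in SMB55 and 12.37 and 11.32 in SMB56, against 12.06 and 11.72 in the P6 cerebella and 12.49 in the adult. The groups overlapped, with 4 parental arrays within the cerebellum values and 4 below them, and the difference was -0.38 (SE 0.40, adjusted p = 0.517). A second Ptch1 probe set differed by 0.25, and which part of the gene the probe sets read was not determined here. Gli2, the main activator downstream of Smo, lay between 10.65 and 12.32 (median 12.01) in the parental arrays, against 10.75 and 10.62 in the P6 cerebella and 8.10 in the adult, with a difference of 1.79 (SE 0.69, adjusted p = 0.101). Hhip, a decoy receptor that binds Hedgehog ligands and is a target of the pathway, lay between 5.91 and 9.01 (median 7.66) in the parental arrays, against 5.86 and 5.83 in the P6 cerebella and 5.68 in the adult. All parental arrays were above all cerebella, but they spread widely and the difference was 1.46 (SE 0.53, adjusted p = 0.0847). Sufu, which restrains the Gli proteins, differed by 0.75 (SE 0.59, adjusted p = 0.384), the co-receptor Gas1 by 0.07 and Gli3, mainly a repressor, by -0.02. The ligand Shh lay between 5.05 and 5.38 (median 5.20) in the parental arrays, against 5.03 and 5.04 in the P6 cerebella and 5.10 in the adult, near the bottom of the range in both groups, and Ihh and Dhh differed by 0.17 and 0.20. Against P6, 1 of the 13 rose with either P6 array left out, or 2 without the SMB21 line, the SMB56 line or SMB56 replicate 2.

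Of 14 measured Hedgehog target genes, 3 rose and 1 fell against normal cerebellum, with a median of 1.30, and 6 rose and 0 fell against P6, with a median of 0.94. Leaving out either P6 array reduced the count against P6 to 2. Over all genes 13% rose and 9.57% fell against normal cerebellum, and 14.6% and 11% against P6. The 3 targets that rose against normal cerebellum were Gli1, Foxm1 and Sfrp1. Foxm1, a forkhead factor that drives mitotic genes, lay between 8.48 and 9.09 (median 8.75) in the parental arrays, against 7.61 and 7.29 in the P6 cerebella and 5.77 in the adult. The parental arrays lay above all cerebella, closest to the P6 pair, and the difference was 1.95 (SE 0.43, adjusted p = 0.018). Sfrp1, a secreted Wnt antagonist, differed by 2.11 (SE 0.61, adjusted p = 0.0434), and Igf2, a growth factor, fell by 1.70 with overlapping arrays (adjusted p = 0.0469). Both of these calls were lost without SMB56 replicate 1 and in further settings, so that 0 targets fell without SMB21 replicate 1, SMB56 replicate 1, a P6 array or the SMB55 line. Ccnd1, cyclin D1, which takes precursors into the cell cycle, measured 12.94, 12.95, 12.99 and 12.71 in the SMB21 arrays, 12.94 and 12.98 in SMB55 and 12.36 and 13.18 in SMB56, against 12.08 and 11.96 in the P6 cerebella and 10.21 in the adult. Every parental array exceeded every cerebellum. The difference narrowly missed the threshold against the 3 cerebella at 1.46 (SE 0.44, adjusted p = 0.0506) and passed it against P6 at 0.86 (SE 0.10, adjusted p = 0.00205). The chemokine receptor Cxcr4 was likewise called only against P6, at 1.40 (SE 0.27, adjusted p = 0.012), beside 2.56 (SE 0.87, adjusted p = 0.07) against all cerebella, and the ciliary trafficking gene Rab34 by 0.47 (SE 0.11, adjusted p = 0.025). Hsd11b2, which inactivates corticosteroids, and Bcl2, an inhibitor of cell death, differed by 2.05 (SE 0.63, adjusted p = 0.0513) and 1.14 (SE 0.35, adjusted p = 0.054). Mycn, the Myc family factor of dividing precursors, lay between 10.23 and 12.30 (median 11.19) in the parental arrays, against 12.04 and 11.93 in the P6 cerebella and 7.81 in the adult. It overlapped P6 and stood above the adult, with a difference of 0.94 (SE 1.07, adjusted p = 0.555), and the cyclin Ccnd2 showed 1.03 (SE 0.94, adjusted p = 0.456). Nog, an inhibitor of BMP signals, differed by 0.01.

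**Figure D2:**
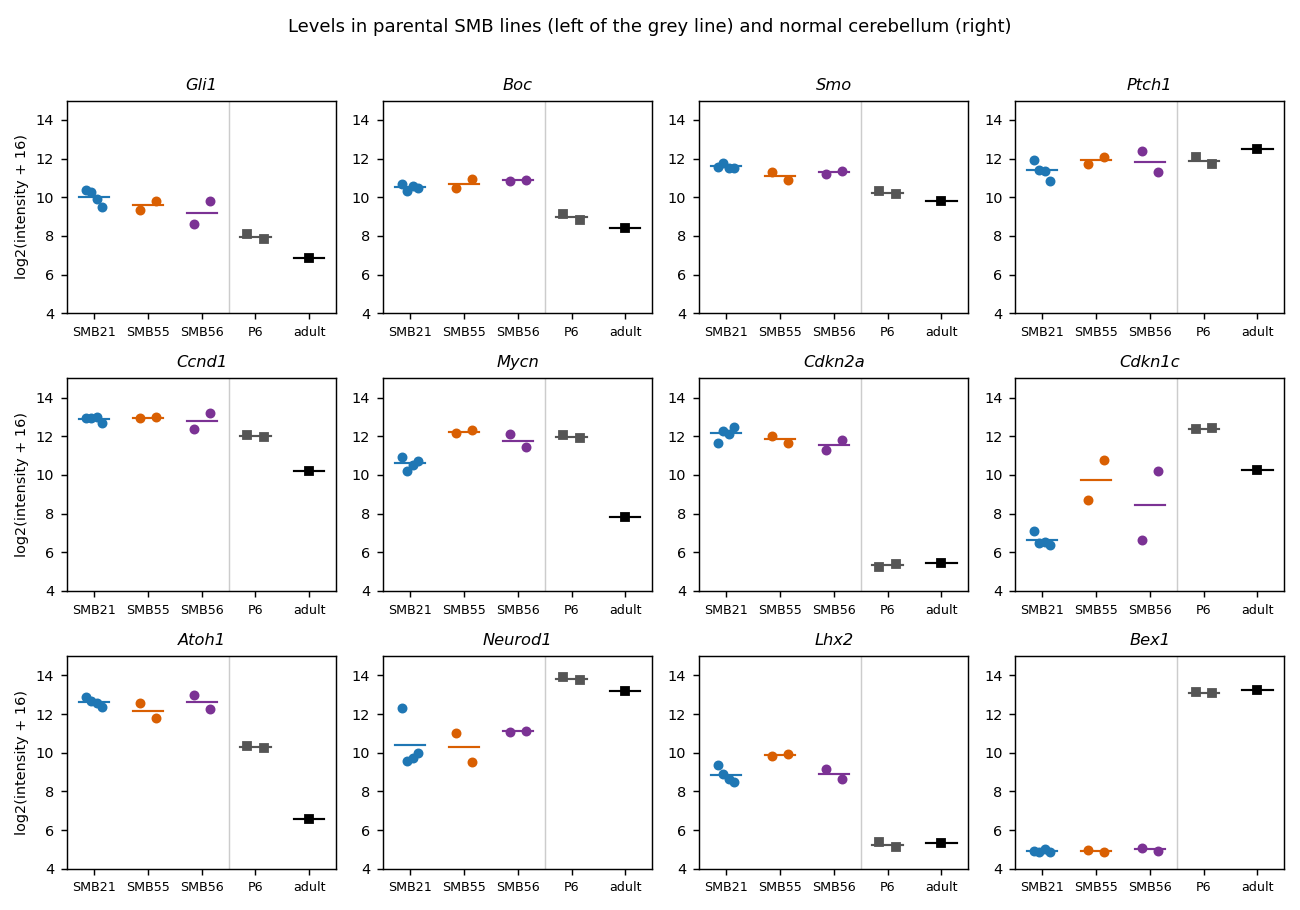
Log2(intensity + 16) of 12 genes, 1 point per array, with the 3 SMB lines on the left, P6 and adult cerebellum on the right, and a line at each group's mean. Gli1, Boc, Smo, Cdkn2a, Atoh1 and Lhx2 lie above all cerebella, Neurod1 and Bex1 lie below, and Ptch1 and Mycn overlap.

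Among 20 cell cycle entry genes and Cdk inhibitors, 2 rose and 1 fell against normal cerebellum, and 5 rose and 2 fell against P6, or 2 and 0 without either P6 array. Over all genes 13% rose and 9.57% fell against normal cerebellum, and 14.6% and 11% against P6. Against all cerebella 4 of the 20 rose and 0 fell without SMB56 replicate 1. The rise of Cdkn2a was the largest of any gene in the comparison. Cdkn2a encodes p16Ink4a and Arf, inhibitors that engage the Rb and p53 pathways. It measured 11.67, 12.29, 12.14 and 12.48 in the SMB21 arrays, 12.03 and 11.66 in SMB55 and 11.28 and 11.81 in SMB56, against 5.23 and 5.41 in the P6 cerebella and 5.42 in the adult. The cerebella lay near the bottom of the range and every parental array was at least as high as 11.28. The difference was 6.49 (SE 0.19, adjusted p = 3.83e-06), and 7.14 with an offset of 1 or 5.39 with an offset of 64 in place of 16, and it was called in every alternative. The array has a single Cdkn2a probe set, and which of the transcripts it reads was not determined here. E2f1, a transcription factor of the G1 to S transition, lay between 9.57 and 12.37 (median 10.09) in the parental arrays, against 8.74 and 8.58 in the P6 cerebella and 6.32 in the adult. It rose by 2.82 (SE 0.76, adjusted p = 0.035), a call lost without any line or without P6 replicate 2. Cdkn1c, the inhibitor p57Kip2, measured 7.11, 6.46, 6.54 and 6.37 in the SMB21 arrays, 8.73 and 10.77 in SMB55 and 6.66 and 10.19 in SMB56, against 12.36 and 12.45 in the P6 cerebella and 10.27 in the adult. SMB55 replicate 2 and SMB56 replicate 2 stood at the height of the adult cerebellum while the SMB21 arrays were below 7.2, so the groups overlapped. The difference was -3.43 (SE 0.87, adjusted p = 0.029), with a call that was lost without SMB56 replicate 1, either P6 array, the SMB21 line or the SMB56 line. The inhibitors Cdkn1a, Cdkn1b and Cdkn2c differed by 0.52, 0.03 and 1.02 without passing. Against P6 alone Rb1, the retinoblastoma protein gene, fell by 0.71 (adjusted p = 0.0133), whereas Mycl, a Myc family factor, and Cdk2, a kinase of S phase entry, differed by 0.95 (SE 0.21, adjusted p = 0.0192) and 0.81 (SE 0.16, adjusted p = 0.0135).

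Few replication and mitosis genes were called against normal cerebellum. Of 24 DNA replication genes 4 rose and 0 fell, beside 13% of all genes that rose, with a median of 1.55, beside 0.69 against P6 and 3.61 against the adult. Of 25 mitosis genes 3 rose and 0 fell, with a median of 2.15, beside 0.59 against P6 and 5.02 against the adult. Against P6, whose 2 arrays agreed closely, 15 replication genes and 10 mitosis genes rose, beside 14.6% of all genes. The adult values come from 1 array and were not tested. The counts against P6 were 3 or 4 in each list without a P6 array. With any line left out, 1 gene of each list was called against all cerebella. Mki67, the proliferation antigen Ki-67, lay between 12.43 and 13.13 (median 12.81) in the parental arrays, against 12.62 and 12.53 in the P6 cerebella and 5.98 in the adult. The parental arrays overlapped P6, where the difference was 0.21, and were far above the adult. Tyms, which makes thymidylate, lay between 6.87 and 7.89 (median 7.36) in the parental arrays, against 6.27 and 6.07 in the P6 cerebella and 5.40 in the adult, above all cerebella in every array. It rose by 1.49 (SE 0.28, adjusted p = 0.0102), and the replication factors Cdc45, Chaf1b and Rfc3 by 2.20 (SE 0.55, adjusted p = 0.0272), 2.45 (SE 0.66, adjusted p = 0.0338) and 1.77 (SE 0.52, adjusted p = 0.0445). Pcna, the sliding clamp of the polymerases, differed by 0.61 against all cerebella and -0.01 against P6, without passing. The mitotic kinase Plk1 lay between 9.57 and 10.24 (median 9.96) in the parental arrays, against 8.41 and 8.38 in the P6 cerebella and 5.74 in the adult. It rose by 2.45 (SE 0.64, adjusted p = 0.0321) and by 1.56 (SE 0.10, adjusted p = 0.000141) against P6, and the centrosomal kinase Nek2 rose by 1.81 (SE 0.42, adjusted p = 0.0211).

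The promoters of these genes are shown because E2F factors are known to act on replication genes through short motifs near the start site. RefSeq promoters of the mouse build GRCm38.p6, from 250 bases before to 50 after the start, were held for 9883 of the 12394 genes and searched on both strands. The letters TTTCCCGC or TTTGGCGC occurred in 8 of the 40 replication and mitosis promoters (20%), beside 294 of all 9883 (2.97%). All 8 belong to the replication list, and no searched promoter of the mitosis list held these letters. The share was 3.73% among genes that rose against normal cerebellum and 1.33% among those that fell. The letters TTTGAA, a cell cycle motif of mitotic genes, occurred in 42.5% of the 40 and in 15.4% of all promoters, and CCAAT in 72.5% and 42.3%. TTTGAA was held by 12.8% of the genes that rose and 17.7% of those that fell, and CCAAT by 43.3% and 41.8%. Windows from 3 of these promoters follow, 5′ to 3′ on the gene's strand with the E2F letters or their reverse complement in capitals. Rfc3 lies at chr5:151651165-151651244 on the minus strand, Mcm6 at chr1:128359772-128359851 on the minus strand and Cdc6 at chr11:98907977-98908056 on the plus strand.
Rfc3: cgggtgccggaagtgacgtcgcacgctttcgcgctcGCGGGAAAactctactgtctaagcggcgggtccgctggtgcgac
Mcm6: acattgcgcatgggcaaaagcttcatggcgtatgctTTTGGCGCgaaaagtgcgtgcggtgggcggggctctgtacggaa
Cdc6: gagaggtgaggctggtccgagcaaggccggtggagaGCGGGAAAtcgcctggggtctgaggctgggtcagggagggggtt
Rfc3 was called in both comparisons, while the helicase subunit Mcm6 differed by 2.11 (SE 0.84, adjusted p = 0.11) against all cerebella and 0.95 (SE 0.13, adjusted p = 0.00364) against P6, and the loading factor Cdc6 by 2.30 (SE 0.91, adjusted p = 0.107) and 1.05 (SE 0.16, adjusted p = 0.00512) against P6.

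Transcription factors of the granule lineage did not move as a block. Of 14, 1 rose and 3 fell against normal cerebellum, with a median of -0.90, and 1 rose and 5 fell against P6, or 3 fell without a P6 array, SMB21 replicate 1, SMB56 replicate 2 or the SMB56 line. Among all genes 13% rose and 9.57% fell against normal cerebellum, and 14.6% and 11% against P6. Atoh1, the factor that specifies granule precursors and keeps them dividing, measured 12.89, 12.67, 12.56 and 12.39 in the SMB21 arrays, 12.56 and 11.79 in SMB55 and 12.97 and 12.24 in SMB56, against 10.33 and 10.23 in the P6 cerebella and 6.58 in the adult. The SMB arrays lay above P6 and far above the adult, without overlap. The difference was 3.42 (SE 0.96, adjusted p = 0.0384), and 2.19 (SE 0.42, adjusted p = 0.0118) against P6, and the first of these calls was lost whenever a line was left out. Neurod1, which is switched on as precursors leave the cell cycle, measured 12.32, 9.58, 9.73 and 9.97 in the SMB21 arrays, 11.01 and 9.55 in SMB55 and 11.08 and 11.13 in SMB56, against 13.91 and 13.74 in the P6 cerebella and 13.20 in the adult. Every parental array was below every cerebellum, and SMB21 replicate 1 stood well above the other SMB21 arrays. The difference was -3.02 (SE 0.27, adjusted p = 0.000493). Meis2, a homeodomain factor, fell by 1.33 (SE 0.12, adjusted p = 0.000573), with all arrays below the cerebella. Eomes, a factor of unipolar brush cells, fell by 3.68 (SE 1.00, adjusted p = 0.0353), a call that was lost without any line or either P6 array. The zinc finger factors Zic1, Zic2 and Zic5 differed by -0.28, -1.76 and -1.29 against all cerebella. Against P6 Zic4 fell by 1.81 (adjusted p = 0.000753) and Zic1 by 0.32 (adjusted p = 0.0467). Zic5 lay at 7.13 and 7.90 in SMB55, and at or above 10.81 in every other parental array. Pax6, carried by the whole granule lineage, differed by -1.51 (SE 0.74, adjusted p = 0.174).

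Of 14 mature granule neuron genes 1 rose and 3 fell against normal cerebellum, with a median of -1.22, and 0 were called against P6. The shares of all genes that rose and fell were 13% and 9.57% against normal cerebellum, and 14.6% and 11% against P6. Cbln1, a secreted organiser of the granule to Purkinje synapse, Kcnk1, a potassium leak channel, and Neurod2, a neuronal differentiation factor, fell by 1.24, 2.28 and 1.21 (adjusted p = 0.0317, 0.0281 and 0.043), and the phosphodiesterase Pde1c differed by 1.07 (SE 0.29, adjusted p = 0.0334). Each of these 4 calls was lost against P6 alone. Without the SMB55 line, or with the SMB56 mean without replicate 2, 0 of the 14 fell. The list's summed intensity was 5354 to 12983 in the parental arrays, against 15120 to 44243 in the cerebella.

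Lhx2, a homeodomain factor of embryonic forebrain and eye progenitors, rose in all 3 lines. It measured 9.38, 8.92, 8.64 and 8.48 in the SMB21 arrays, 9.85 and 9.92 in SMB55 and 9.15 and 8.65 in SMB56, against 5.37 and 5.14 in the P6 cerebella and 5.36 in the adult. The cerebella were at the bottom of the range and no array overlapped. The difference was 3.92 (SE 0.32, adjusted p = 0.000328) against all cerebella and 3.96 (SE 0.37, adjusted p = 0.000683) against P6. It was among 3 of 15 neural stem cell genes that rose, with 0 that fell, against both cerebellum groups, and 1 of the 15 rose without the SMB21 or SMB56 line, or against P6 without a P6 array. Without the SMB55 line 1 of them fell. The intermediate filament Nes differed by 1.46 (SE 0.38, adjusted p = 0.032) and the factor Sox1 by 0.46 (SE 0.12, adjusted p = 0.0282), while Sox2 differed by -0.36 (SE 0.57, adjusted p = 0.679) and lay between 8.98 and 12.61 (median 10.36) in the parental arrays, against 11.28 and 11.29 in the P6 cerebella and 11.11 in the adult. Of 20 Notch pathway genes 3 rose and 3 fell, beside 13% and 9.57% of all genes. The ligand Jag1 lay between 8.73 and 10.13 (median 9.57) in the parental arrays, against 6.74 and 6.85 in the P6 cerebella and 6.17 in the adult. The ligand family member Dll3, which antagonises Notch within its own cell, lay between 11.25 and 11.92 (median 11.54) in the parental arrays, against 8.75 and 8.97 in the P6 cerebella and 6.13 in the adult. Both were above all cerebella in every parental array, and they rose by 2.89 (SE 0.25, adjusted p = 0.000435) and 3.65 (SE 0.74, adjusted p = 0.0131). The neuronal ligand Dner and the receptor Notch3 fell by 2.46 (adjusted p = 0.000353) and 1.29 (adjusted p = 0.00949). The ligand Jag2 rose by 0.58 (SE 0.17, adjusted p = 0.0455) and the Notch glycosyltransferase Rfng fell by 0.44 (adjusted p = 0.0432), calls that were lost in any setting that left out a line or a P6 array. The Notch target Hes5 differed by -2.70 (SE 0.58, adjusted p = 0.0171) against P6 and -1.43 (SE 1.04, adjusted p = 0.347) against all cerebella.

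Fgf8, the signal of the embryonic isthmus from which the cerebellum is patterned, measured 7.57, 7.48, 7.96 and 8.51 in the SMB21 arrays, 7.33 and 7.64 in SMB55 and 8.14 and 8.20 in SMB56, against 5.93 and 6.18 in the P6 cerebella and 5.77 in the adult. All parental arrays were higher, and it rose by 1.89 (SE 0.24, adjusted p = 0.00212), the only rise among 20 regional patterning genes, with 2 rising without the SMB21 line. En2, a factor of the midbrain and hindbrain, fell by 1.14 (adjusted p = 0.0304), a call lost without either P6 array, the SMB55 line or the SMB56 line. Otx2, a midbrain factor, was at 5.06 and 5.22 in SMB55 and between 9.08 and 11.90 in the other parental arrays, against 10.12 and 9.61 at P6 and 10.44 in the adult, so the groups overlapped. Of 17 ERK output genes 1 rose and 1 fell, beside 13% and 9.57% of all genes. The ETS factor Etv5 lay between 8.99 and 10.73 (median 9.80) in the parental arrays, against 7.16 and 7.02 in the P6 cerebella and 7.17 in the adult. All parental arrays were higher, with a rise of 2.67 (SE 0.22, adjusted p = 0.000335). The feedback inhibitor Spry2 fell by 1.18 (adjusted p = 0.0171), a call lost without the SMB56 line, and its other probe set differed by 0.02. Of 17 Wnt pathway genes 4 rose and 1 fell, beside the same shares of all genes. Besides Sfrp1, the Wnt antagonist Wif1, the receptor Fzd7 and the feedback inhibitor Nkd1 rose by 1.83 (SE 0.49, adjusted p = 0.0345), 1.69 (SE 0.44, adjusted p = 0.0316) and 1.39 (SE 0.35, adjusted p = 0.0278), and without the SMB21 line or without the SMB56 line 0 of the 17 rose. The secreted protein Dkk3 fell by 1.81 (adjusted p = 0.0287).

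Genes of neuronal differentiation fell in large part. Of 25 neuronal cytoskeleton and early differentiation genes 0 rose and 14 fell, with a median of -1.90, and 19 fell against P6, with a median of -1.96, or 12 without P6 replicate 1. Bex1, a small signalling adaptor of neurons, measured 4.93, 4.86, 5.03 and 4.88 in the SMB21 arrays, 4.95 and 4.86 in SMB55 and 5.09 and 4.93 in SMB56, against 13.13 and 13.07 in the P6 cerebella and 13.25 in the adult. The parental arrays were all at the bottom of the range, and the difference was -8.20 (SE 0.39, adjusted p = 2.82e-05), or -9.17 and -6.86 with offsets of 1 and 64. Stmn2, which destabilises microtubules in growing axons, measured 8.67, 6.63, 6.24 and 6.62 in the SMB21 arrays, 6.43 and 6.24 in SMB55 and 7.30 and 6.85 in SMB56, against 13.15 and 13.26 in the P6 cerebella and 12.40 in the adult, and SMB21 replicate 1 was the highest parental array. It fell by 6.12 (SE 0.28, adjusted p = 2.61e-05). The neurofilament gene Nefl lay between 5.10 and 8.66 (median 7.54) in the parental arrays, against 12.89 and 13.04 in the P6 cerebella and 13.29 in the adult. Its level fell by 5.82 (adjusted p = 0.000328), and Ina, another filament, fell by 1.74 (adjusted p = 0.00106). Dcx, the microtubule protein of migrating young neurons, lay between 9.39 and 11.11 (median 10.70) in the parental arrays, against 12.31 and 11.96 in the P6 cerebella and 6.99 in the adult. It was below P6 and above the adult in every parental array, and it differed by -0.03 against all cerebella, -1.74 (SE 0.22, adjusted p = 0.00239) against P6 and 3.40 against the adult. Gap43, Cntn2 and Elavl3, genes of axon growth and new neurons, differed by 0.05, 0.18 and -0.11 and did not pass.

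Of 21 synaptic vesicle genes 0 rose and 13 fell, with a median of -1.97, and 15 fell against P6, or 2 or 3 without a P6 array and 8 without the SMB56 line. Syt4, a vesicle synaptotagmin, and Snap25, a SNARE protein of release, were named after their values were seen. Syt4 fell by 5.39 (adjusted p = 0.0163) and Snap25 by 3.83 (adjusted p = 0.0239). Syp, the vesicle protein synaptophysin, lay between 6.69 and 7.98 (median 7.23) in the parental arrays, against 9.98 and 10.08 in the P6 cerebella and 11.31 in the adult. No parental array reached the cerebella, and it fell by 3.09 (adjusted p = 0.00485). Of 20 glutamate, GABA and glycine receptor genes 1 rose and 8 fell, or 5 fell without the SMB56 line. The rise was that of the NMDA receptor subunit Grin2d, by 0.30 (SE 0.09, adjusted p = 0.0487), and it was lost without any line or P6 array. The AMPA receptor subunits Gria1 and Gria2 fell by 5.53 (adjusted p = 0.00407) and 1.96 (adjusted p = 0.000711), the kainate receptor Grik1 by 2.26 (adjusted p = 0.000659) and the GABA receptor subunit Gabrg1 by 3.28 (adjusted p = 0.00305). Slc32a1, the vesicular GABA transporter, had probe sets that disagreed, since the kept set differed by 0.16 and the other by -4.92. Of 25 ion channel genes 0 rose and 9 fell, or 4 without SMB21 and 5 without SMB56. Against P6, 8 receptor genes and 7 channel genes fell, or 4 or 5 of each without a P6 array. Of 26 axon guidance genes 3 rose and 6 fell, beside 13% and 9.57% of all genes. Only 1 of the 26 rose without SMB56 replicate 2, P6 replicate 2, the SMB21 line or the SMB56 line. The repellent Sema3a lay between 6.03 and 6.72 (median 6.36) in the parental arrays, against 9.57 and 9.58 in the P6 cerebella and 9.30 in the adult. Slit2, another repellent, lay between 5.66 and 6.57 (median 5.91) in the parental arrays, against 9.74 and 9.52 in the P6 cerebella and 9.88 in the adult. No SMB array overlapped a cerebellum, and they fell by 3.11 (adjusted p = 1.8e-05) and 3.65 (adjusted p = 5.22e-05). The ephrin Efnb3 fell by 1.89 (adjusted p = 0.000398), while Sema3f, a further repellent, rose by 0.66 (SE 0.10, adjusted p = 0.00388). Slit3, a relative of Slit2, and the plexin Plxnb2 also rose, by 0.93 (SE 0.26, adjusted p = 0.0395) and 1.24 (SE 0.36, adjusted p = 0.0442).

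Many of the deepest falls were in genes of cell types that whole cerebellum holds besides granule cells. In whole tissue, fewer cells of a type and less RNA per cell cannot be told apart. Of 17 microglia genes 0 rose and 16 fell against both cerebellum groups, with a median of -2.71, and their summed intensity was 662 to 842 in the parental arrays against 7088 to 20634 in the cerebella. Tyrobp, a microglial signalling adaptor, measured 5.17, 5.60, 5.70 and 5.50 in the SMB21 arrays, 5.25 and 5.29 in SMB55 and 5.63 and 5.41 in SMB56, against 8.89 and 9.52 in the P6 cerebella and 9.29 in the adult. The difference was -3.81 (SE 0.18, adjusted p = 2.82e-05), and Csf1r, the receptor on which microglia depend, fell by 4.98 (adjusted p = 0.000113), and the complement genes C1qc and C1qb differed by -2.99 and -3.94. Of 20 endothelium and pericyte genes 0 rose and 12 fell, with sums of 1518 to 3327 against 11429 to 17750. The pericyte receptor Pdgfrb lay between 4.81 and 4.97 (median 4.91) in the parental arrays, against 9.63 and 9.56 in the P6 cerebella and 9.34 in the adult. The gene fell by 4.61 (adjusted p = 2.07e-05), whereas its other probe set differed by -0.51. Of 17 choroid plexus, meninges and fibroblast genes 0 rose and 12 fell, with sums of 2731 to 12665 against 54845 to 78151. Ttr, the transthyretin of choroid plexus, lay between 5.94 and 6.51 (median 6.20) in the parental arrays, against 12.89 and 12.01 in the P6 cerebella and 14.45 in the adult. It fell by 6.93 (adjusted p = 0.000248). Col3a1, a fibrillar collagen, fell by 7.18 against P6 (adjusted p = 0.000477). Single markers were high in single SMB arrays, among them the smooth muscle gene Tagln at 10.94 in SMB56 replicate 1 and the matrix gene Mgp at 11.21 and 11.49 in SMB55 replicate 2 and SMB56 replicate 2.

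Of 16 genes of Purkinje cells and inhibitory neurons 0 rose and 10 fell, with a median of -2.77, beside -2.08 against P6 and -4.84 against the adult. The calcium-binding protein Calb1 measured 5.20, 6.21, 8.14 and 6.81 in the SMB21 arrays, 5.59 and 5.43 in SMB55 and 5.70 and 5.36 in SMB56, against 13.68 and 13.59 in the P6 cerebella and 14.35 in the adult. It fell by 7.99 (SE 0.79, adjusted p = 0.000779), and the Purkinje gene Pcp2 fell by 6.69 (adjusted p = 0.000858). Gad1, which makes GABA, fell by 6.42 (adjusted p = 0.000497). Car8, a carbonic anhydrase relative of Purkinje cells, lay at 8.13 and 9.74 in SMB55 and 9.28 in SMB56 replicate 2 but between 5.10 and 5.72 in the other parental arrays, against 13.11 and 13.01 at P6 and 14.16 in the adult, and fell by 6.20 (adjusted p = 0.00306). Of 19 astrocyte and Bergmann glia genes 0 rose and 12 fell, with sums of 10496 to 41191 against 81251 to 168373. Aldh1l1, a folate enzyme of astrocytes, lay between 5.43 and 5.92 (median 5.61) in the parental arrays, against 10.67 and 10.67 in the P6 cerebella and 10.56 in the adult. Its level fell by 4.98 (adjusted p = 2.22e-06). The water channel Aqp4 and the gap junction protein Gja1 fell by 7.72 and 7.26, with Aqp4 at 6.63 in SMB21 replicate 1 against 12.67 and 12.90 at P6 and 13.03 in the adult. Of 14 oligodendrocyte genes 0 rose and 5 fell, or 2 or 3 with the SMB21 line, the SMB56 line, SMB56 replicate 1 or P6 replicate 2 left out. Here the sums overlapped, at 3764 to 40165 against 20983 to 65109. The myelin gene Mbp fell by 5.35 (adjusted p = 0.0188) and Cldn11 of the myelin sheath by 3.51 (adjusted p = 0.00429). The other falls were those of the myelin genes Cnp and Ugt8a, by 2.17 and 2.38, and of the lineage factor Nkx2-2, by 1.04.

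**Figure D3:**
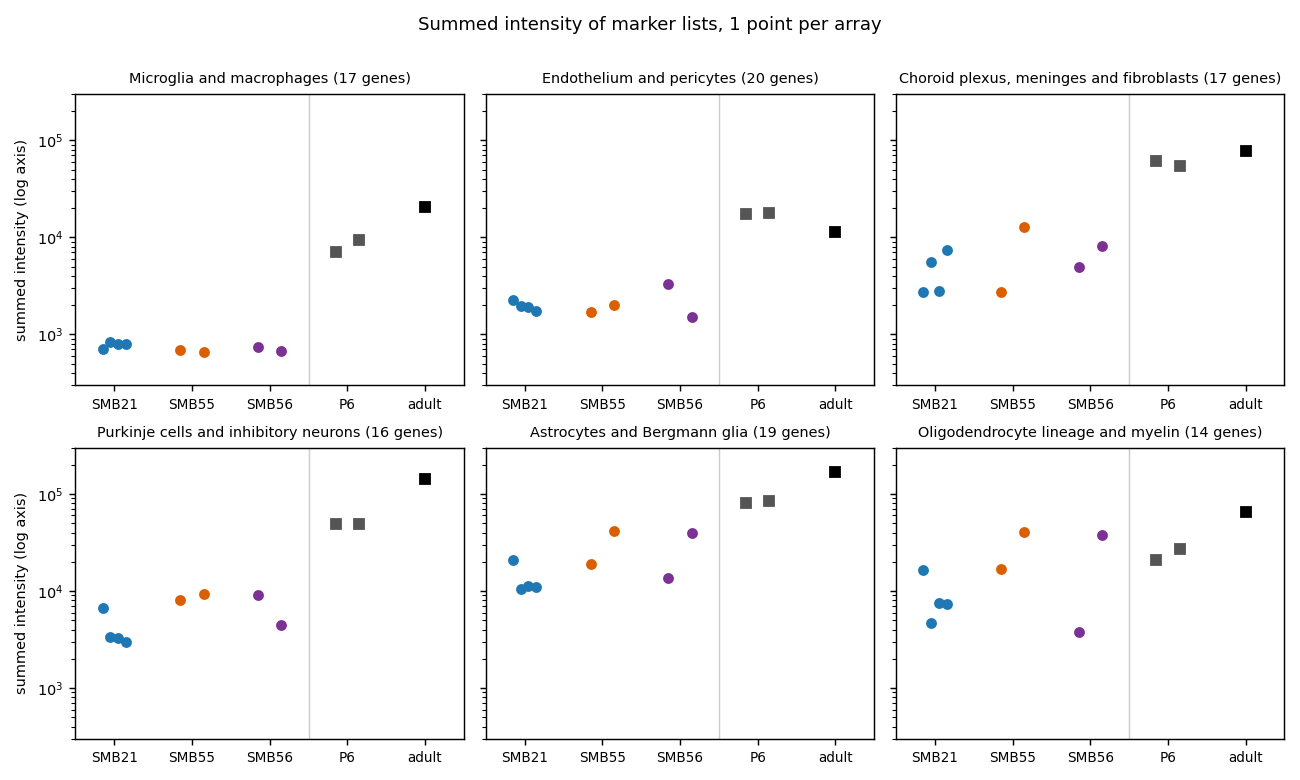
Summed linear intensity of 6 marker lists on a log axis, 1 point per array, with the SMB lines left of P6 and adult cerebellum. Microglia sums are 662 to 842 in the SMB arrays and 7088 to 20634 in the cerebella, while the oligodendrocyte sums of single SMB55 and SMB56 arrays reach the P6 values.

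Most measured genes of the amino acid stress response rose in the SMB lines. When amino acids or protein folding fail, cells are known to translate the factor ATF4, which with C/EBP partners turns on amino acid synthesis, transport and tRNA charging genes. Of 33 measured genes 22 rose and 0 fell against normal cerebellum, beside 13% of all genes that rose, and 24 rose and 0 fell against P6, beside 14.6%. The median was 1.29 against all cerebella and 1.36 against each of P6 and the adult, and the SMB21, SMB55 and SMB56 line medians were 1.39, 1.35 and 1.19. With a line or single array left out, 16 to 22 genes rose against all cerebella and 0 fell, except 1 without the SMB55 line, whereas 8 or 10 rose against P6 without a P6 array. Trib3, a pseudokinase that restrains ATF4, measured 10.48, 10.01, 9.92 and 9.39 in the SMB21 arrays, 9.29 and 9.04 in SMB55 and 8.97 and 9.03 in SMB56, against 6.23 and 6.24 in the P6 cerebella and 6.10 in the adult. All parental arrays were at least 8.97 and all cerebella at most 6.24, and the difference was 3.18 (SE 0.29, adjusted p = 0.00059). Psat1, an enzyme of serine synthesis, lay between 13.03 and 13.72 (median 13.57) in the parental arrays, against 11.88 and 12.01 in the P6 cerebella and 11.52 in the adult. The gene rose by 1.66 (SE 0.16, adjusted p = 0.000692). Mthfd2, the mitochondrial folate enzyme fed by serine, lay between 11.27 and 12.65 (median 11.76) in the parental arrays, against 8.96 and 8.76 in the P6 cerebella and 8.68 in the adult. It rose by 3.00 (SE 0.30, adjusted p = 0.000836). Slc3a2, the heavy chain of amino acid exchangers, rose by 1.06 (SE 0.11, adjusted p = 0.000863).

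Further members of that list were among the largest rises of all genes. Eif4ebp1, a repressor of cap-dependent translation, measured 12.33, 11.74, 11.88 and 11.78 in the SMB21 arrays, 12.09 and 11.89 in SMB55 and 12.30 and 11.26 in SMB56, against 8.78 and 8.80 in the P6 cerebella and 7.69 in the adult. The parental arrays were above all cerebella, and the difference was 3.48 (SE 0.42, adjusted p = 0.00179), with 3.78 and 1.17 from its other probe sets. Cth, which makes cysteine from cystathionine, lay between 9.75 and 11.61 (median 10.82) in the parental arrays, against 7.77 and 8.01 in the P6 cerebella and 7.52 in the adult. Its level rose by 3.00 (SE 0.50, adjusted p = 0.00632). Atf4 itself and Asns, which makes asparagine, were named after their values were seen. Atf4 lay between 12.62 and 13.14 (median 12.84) in the parental arrays, against 11.44 and 11.44 in the P6 cerebella and 11.99 in the adult. The gene rose by 1.17 (SE 0.19, adjusted p = 0.00611). Asns rose by 2.05 (SE 0.55, adjusted p = 0.0341), a call lost when any line or P6 array was left out. Members that did not pass were Phgdh, the first enzyme of serine synthesis, at 0.91 (SE 0.28, adjusted p = 0.0552), Ddit3, the stress factor CHOP, at 1.11 (SE 0.47, adjusted p = 0.128), Wars, which charges tryptophan tRNA, at 0.07 (SE 0.17, adjusted p = 0.806), and the cystine transporter Slc7a11 at -0.54 (SE 0.19, adjusted p = 0.0781). Ddit3 was called against P6 at 1.67 (SE 0.28, adjusted p = 0.00706). Slc7a3, a cationic amino acid transporter, split the arrays at 10.59, 6.45, 5.78 and 6.13 in the SMB21 arrays, 9.89 and 6.86 in SMB55 and 9.33 and 9.43 in SMB56, against 6.36 and 6.43 in the P6 cerebella and 8.16 in the adult. It was high in replicate 1 of each line and in SMB56 replicate 2, and at or below 6.86 in the other parental arrays.

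**Figure D4:**
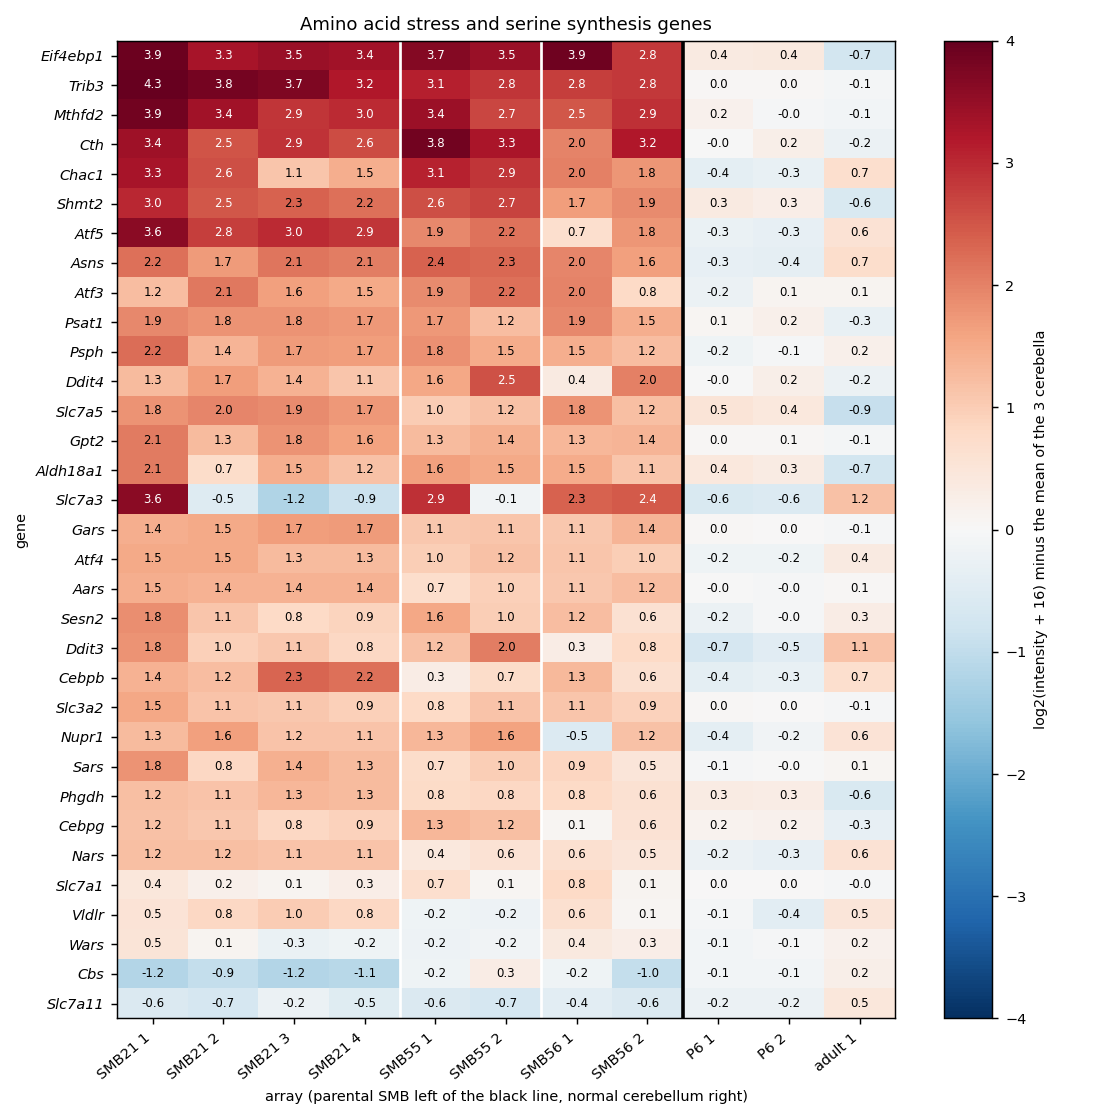
Heat map of 33 amino acid stress genes in 11 arrays, SMB arrays left of the cerebella, as log2(intensity + 16) minus the mean of the 3 cerebella. Trib3, Eif4ebp1, Mthfd2 and Cth are high in all 8 SMB arrays, whereas Slc7a3 is high in replicate 1 of each line and SMB56 replicate 2.

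The core of the element that ATF4 and C/EBP proteins bind, TTGCATCA, occurred on either strand in 6 of the 27 promoters searched for these genes (22.2%), beside 84 of all 9883 (0.85%), 1.07% of the genes that rose and 0.664% of those that fell. The 6 are shown because they are all the searched promoters of the list with these letters. They are given as windows 5′ to 3′ on the gene's strand, with the match or its reverse complement in capitals. Chac1, a glutathione-degrading enzyme, lies at chr2:119351013-119351092 on the plus strand, the stress factor Atf3 at chr1:191183400-191183479 on the minus strand and the alanyl-tRNA synthetase Aars at chr8:111033694-111033773 on the plus strand. The stress protein Nupr1 lies at chr7:126625537-126625616 on the minus strand, Slc7a11 at chr3:50443636-50443715 on the minus strand and the lipoprotein receptor Vldlr at chr19:27216784-27216863 on the plus strand.
Chac1: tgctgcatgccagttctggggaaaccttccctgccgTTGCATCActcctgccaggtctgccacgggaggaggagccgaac
Atf3: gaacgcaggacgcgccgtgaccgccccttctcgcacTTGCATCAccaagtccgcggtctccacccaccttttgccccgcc
Aars: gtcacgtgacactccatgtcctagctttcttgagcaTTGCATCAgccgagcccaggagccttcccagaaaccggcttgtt
Nupr1: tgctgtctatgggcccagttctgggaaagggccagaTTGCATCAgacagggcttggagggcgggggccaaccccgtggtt
Slc7a11: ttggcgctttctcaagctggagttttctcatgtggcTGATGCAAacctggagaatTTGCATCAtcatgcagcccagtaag
Vldlr: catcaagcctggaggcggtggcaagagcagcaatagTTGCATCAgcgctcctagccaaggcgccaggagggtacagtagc
Of these genes Chac1, Atf3 and Aars rose against normal cerebellum, by 2.33 (SE 0.61, adjusted p = 0.0323), 1.68 (SE 0.19, adjusted p = 0.00125) and 1.13 (SE 0.20, adjusted p = 0.00791). Nupr1 was called only against P6, at 1.30 (SE 0.39, adjusted p = 0.0477). Slc7a11, with 2 matches, and Vldlr differed by -0.54 and 0.32 without passing. The Gli binding letters TGGGTGGTC occurred in 0 of 15 Hedgehog promoters and in 0.192% of all.

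Of 24 ribosome biogenesis genes 16 rose and 0 fell against normal cerebellum, beside 13% of all genes that rose, with a median of 1.08, and 17 rose against P6, beside 14.6%, with a median of 0.75. These counts were 9 without the SMB21 or the SMB56 line, and 2 against P6 without either P6 array. Bop1, a factor of large subunit assembly, lay between 9.17 and 9.82 (median 9.38) in the parental arrays, against 8.24 and 8.43 in the P6 cerebella and 7.95 in the adult. Bysl, of small subunit assembly, lay between 9.85 and 10.45 (median 10.13) in the parental arrays, against 8.88 and 9.09 in the P6 cerebella and 8.91 in the adult. Every parental array was above every cerebellum, and they rose by 1.28 (SE 0.15, adjusted p = 0.00159) and 1.13 (SE 0.15, adjusted p = 0.00251). The nucleolar protein Ncl and the RNA polymerase I subunit Polr1a rose by 1.05 (SE 0.19, adjusted p = 0.00819) and 1.28 (SE 0.25, adjusted p = 0.0115). Npm1, a nucleolar chaperone, differed by 0.33 (SE 0.23, adjusted p = 0.326). Of 15 cholesterol synthesis genes 5 rose and 0 fell, or 3 rose without either P6 array, the SMB21 line or the SMB56 line. Fdps, which makes farnesyl diphosphate, lay between 11.46 and 12.38 (median 11.91) in the parental arrays, against 10.15 and 10.51 in the P6 cerebella and 9.26 in the adult. It rose by 1.88 (SE 0.31, adjusted p = 0.00612). Srebf2, the master factor of the pathway, lay between 10.02 and 10.97 (median 10.61) in the parental arrays, against 9.12 and 9.17 in the P6 cerebella and 7.74 in the adult. Its level rose by 1.77 (SE 0.35, adjusted p = 0.0127), and the sterol enzymes Msmo1 and Lss by 0.76 (SE 0.15, adjusted p = 0.0119) and 0.91 (SE 0.26, adjusted p = 0.0402). Other Lss probe sets differed by 0.57 and -0.10. Nsdhl, a further sterol enzyme, rose by 0.68 (SE 0.20, adjusted p = 0.0434). Of 32 mitochondrial respiratory genes 0 rose and 10 fell, with a median of -0.34, or 3 to 5 with P6 replicate 2, SMB56 replicate 2 or any line left out. The complex I genes Ndufs4 and Ndufa1 fell by 1.27 (adjusted p = 0.00263) and 0.66 (adjusted p = 0.0145), and the complex III gene Uqcrfs1 by 0.79 (adjusted p = 0.00828).

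Of 23 glycolysis and hypoxia genes 10 rose and 1 fell against normal cerebellum, with a median of 0.51, and 12 rose and 1 fell against P6, or 4 or 5 and 0 without a P6 array. Among all genes 13% rose and 9.57% fell against normal cerebellum, and 14.6% and 11% against P6. Vegfa, the vascular growth factor, measured 9.37, 9.88, 10.58 and 9.91 in the SMB21 arrays, 8.87 and 12.22 in SMB55 and 8.13 and 10.81 in SMB56, against 7.34 and 7.48 in the P6 cerebella and 8.29 in the adult. The lowest parental array was SMB56 replicate 1, below the adult, and the difference was 2.28 (SE 0.35, adjusted p = 0.0045), a call lost without SMB56 replicate 2. Hk2, a hexokinase, lay between 10.20 and 12.27 (median 11.45) in the parental arrays, against 8.10 and 8.20 in the P6 cerebella and 9.32 in the adult. The gene rose by 2.83 (SE 0.46, adjusted p = 0.00593). Ldha, lactate dehydrogenase, rose by 1.15 (SE 0.19, adjusted p = 0.00611) and Egln3, a prolyl hydroxylase of the hypoxia factor, by 1.82 (SE 0.33, adjusted p = 0.0089). The fall was that of Pfkp, a phosphofructokinase, by 2.77 (adjusted p = 0.0182), lost without the SMB21 or SMB56 line. The list divided the replicates of every line, which was noticed after the values were seen. Replicate 1 was the lowest array of its line for 17 of the 23 genes in SMB21, 23 in SMB55 and 21 in SMB56, and for 16 genes in all 3 lines. Over all genes those shares were 44.3%, 50.1% and 43.6%, and 12.4% in all 3. The other arrays exceeded replicate 1 by a median of 0.83, 1.41 and 0.81 in the 3 lines. Pdk1, a kinase that keeps pyruvate out of mitochondria, differed between the other arrays and replicate 1 by 4.24, 2.63 and 3.81, and Bnip3, a mitophagy receptor, by 2.5, 1.98 and 3.83. The labels give no batch for these arrays. With the SMB56 mean taken without replicate 2, 4 of the 23 genes rose against normal cerebellum, and 7 against P6.

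Arrays of the same line also differed in genes of the glial lineage. Olig1, a factor of oligodendrocyte precursors, measured 13.35, 5.77, 6.13 and 5.72 in the SMB21 arrays, 13.04 and 13.97 in SMB55 and 9.38 and 13.53 in SMB56, against 11.37 and 11.71 in the P6 cerebella and 11.37 in the adult. It was near the bottom of the range in SMB21 replicates 2 to 4 and above all cerebella in SMB21 replicate 1, both SMB55 arrays and SMB56 replicate 2. Fabp7, a fatty acid binding protein of radial glia, measured 12.46, 5.99, 5.71 and 5.66 in the SMB21 arrays, 12.58 and 13.28 in SMB55 and 7.21 and 13.24 in SMB56, against 14.75 and 14.64 in the P6 cerebella and 12.33 in the adult, with the same 4 parental arrays high, though below P6. Sox10, an oligodendrocyte lineage factor, measured 7.27, 7.83, 7.99 and 7.71 in the SMB21 arrays, 10.15 and 12.27 in SMB55 and 7.87 and 12.45 in SMB56, against 8.98 and 9.50 in the P6 cerebella and 9.54 in the adult, and it was highest in SMB55 and SMB56 replicate 2 but not in SMB21 replicate 1. Cntn1, a neural adhesion protein, measured 5.72, 6.14, 5.64 and 5.78 in the SMB21 arrays, 11.99 and 12.91 in SMB55 and 7.54 and 13.61 in SMB56, against 12.53 and 12.50 in the P6 cerebella and 13.17 in the adult. It was high in SMB55 and SMB56 replicate 2 and low in SMB21 and SMB56 replicate 1. Between the SMB55 mean and SMB56 replicate 1, 282 genes were more than 4-fold apart, and SMB56 replicate 2 was nearer SMB55 in 221 of them. These genes were picked for that split, so their values are a description.

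**Figure D5:**
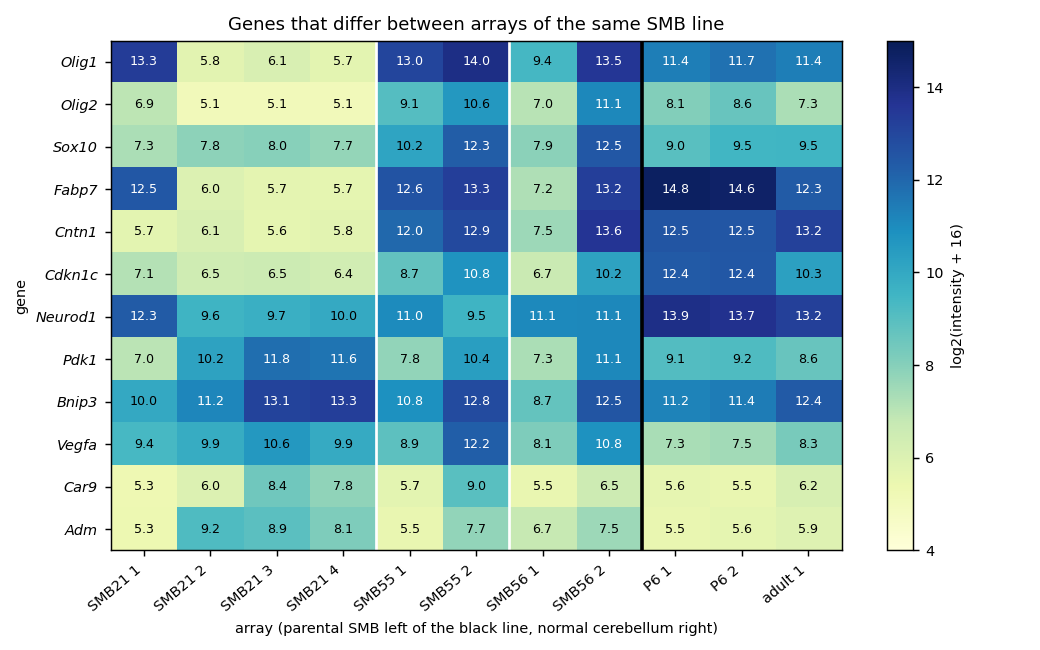
Log2(intensity + 16) of 12 genes in 11 arrays, SMB arrays left of the black line and cerebella right. Olig1, Fabp7 and Sox10 are high in SMB55 and SMB56 replicate 2, and Pdk1 and Bnip3 are lowest in replicate 1 of each line.

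Of 18 p53 target genes 3 rose and 4 fell against normal cerebellum, and 4 rose and 3 fell against P6, or 1 and 1 without either P6 array. Over all genes 13% rose and 9.57% fell against normal cerebellum, and 14.6% and 11% against P6. Btg2, an antiproliferative gene, lay between 11.16 and 12.10 (median 11.39) in the parental arrays, against 10.22 and 10.41 in the P6 cerebella and 9.06 in the adult. It rose by 1.58 (SE 0.32, adjusted p = 0.0131), and Sesn2, a stress-induced inhibitor of mTORC1 signalling, by 1.12 (SE 0.22, adjusted p = 0.0127). Sesn1, its relative, lay between 10.39 and 10.80 (median 10.63) in the parental arrays, against 11.65 and 11.77 in the P6 cerebella and 12.02 in the adult. No array overlapped, and it fell by 1.23 (adjusted p = 0.00123), while the kinase Plk2 fell by 1.32 (adjusted p = 0.0085), a call lost without SMB56 replicate 1. The other called members were Pmaip1, which promotes apoptosis, at 2.21 (SE 0.52, adjusted p = 0.0225), Ccng1, a cyclin G, at -1.19 (SE 0.33, adjusted p = 0.0387) and Perp, a membrane protein of apoptosis and adhesion, at -2.41 (SE 0.59, adjusted p = 0.0244). Without the SMB55 line 2 of the 18 fell. Of 22 Polycomb and chromatin genes 2 rose and 1 fell, and of 19 antigen presentation and interferon genes 0 rose and 1 fell. The Polycomb subunit Cbx2 rose by 1.80 (SE 0.40, adjusted p = 0.0182) and Suz12 by 0.60 (SE 0.18, adjusted p = 0.0493), and the histone deacetylase Hdac11 fell by 2.70 (adjusted p = 0.0207). With any line left out 0 or 1 of these rose and 0 fell. Ifitm3, an interferon-induced membrane protein, fell by 2.37 (adjusted p = 0.0243), a call lost without either P6 array or the SMB56 line.

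Among genes outside the lists whose arrays did not overlap and that met the naming rule, the largest rises were in Mr1, Tbata, Cyb5r1 and Chst5. Prm1, a protamine of sperm chromatin named after its values were seen, had a larger difference of 5.13 (SE 0.93, adjusted p = 0.00876) with overlapping arrays. It measured 11.28, 11.03, 11.33 and 11.04 in the SMB21 arrays, 11.75 and 11.49 in SMB55 and 5.07 and 10.49 in SMB56, against 5.09 and 5.07 in the P6 cerebella and 5.00 in the adult. SMB56 replicate 1 alone lay at the cerebellum level. Mr1, which presents microbial metabolites to T cells, measured 10.77, 10.67, 11.10 and 10.76 in the SMB21 arrays, 9.42 and 9.48 in SMB55 and 10.04 and 9.54 in SMB56, against 5.95 and 6.24 in the P6 cerebella and 6.56 in the adult. No array overlapped, and it rose by 3.77 (SE 0.34, adjusted p = 0.000533). Tbata, a gene named for thymus, brain and testis, rose by 3.27 (SE 0.63, adjusted p = 0.0111). Cyb5r1, a cytochrome b5 reductase, rose by 3.09 (SE 0.71, adjusted p = 0.0204), a call lost without either P6 array or the SMB21 line, and Chst5, a carbohydrate sulfotransferase, by 3.03 (SE 0.35, adjusted p = 0.00159). Against P6 alone the largest included Nptx1, a neuronal pentraxin, at 3.36 (SE 0.74, adjusted p = 0.0182) and Tesc, a calcium-binding protein, at 3.28 (SE 0.97, adjusted p = 0.0471). The adult cerebellum was at 12.21 for Nptx1, above the parental range of 10.15 to 11.84. Slc4a10, a bicarbonate transporter of neurons and choroid plexus, lay between 5.20 and 5.34 (median 5.32) in the parental arrays, against 11.42 and 11.35 in the P6 cerebella and 13.18 in the adult. It fell by 6.67 (adjusted p = 0.00225). Pla2g7, an enzyme that breaks down platelet-activating factor, lay between 5.07 and 6.11 (median 5.34) in the parental arrays, against 11.37 and 11.62 in the P6 cerebella and 12.86 in the adult. Its level fell by 6.49 (adjusted p = 5.15e-05). Dcn, the matrix proteoglycan decorin, and the pericyte gene Rgs5, both members of lists above, were among the largest falls, by 6.42 against all cerebella (adjusted p = 0.00168) and by 6.56 against P6 (adjusted p = 0.000105).

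Calls were not spread evenly over the chromosomes. Against P6, 2.4% of 459 genes on chromosome 13 rose and 16.1% fell, beside 14.6% and 11% of all genes, and on the X chromosome 6.47% of 402 genes rose and 17.9% fell. On chromosomes 15 and 17, 25.5% and 24.5% rose and 8.28% and 7.72% fell. These shares rest on the P6 pair and were not recomputed with either P6 array left out. The median difference from P6 over chromosome 13, after subtracting each line's median over all genes, was -0.35 in SMB21, -0.07 in SMB55 and -0.21 in SMB56. In SMB55 it was further below 0 on the X chromosome (-0.15) and chromosome 14 (-0.12), among others. In SMB56 it was further below 0 on chromosome 10 (-0.23).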

How the data were processed

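Total RNA was biotin labelled and hybridised to Affymetrix mouse arrays, per the labels. The authors deposited 1 linear intensity per probe set and array. Their summarisation and normalization are not given in the sources used here. The median intensity of an array was 202.4 to 240.9. An array has no read depth, and the small number of arrays limits the precision. Of 22690 probe sets, 20393 have 1 gene symbol, and each gene was read from its probe set of highest mean across all 24 arrays, giving 12394 genes. Limma 3.58.1 in R 4.3.3 was fitted to log2(intensity + 16) of 9 values: 3 cerebella, 3 primary tumours and 3 line means. P6 and adult were separate groups in the contrast with P6. Tests were two-sided with Benjamini-Hochberg adjustment over all genes, and the script recovered known changes in simulated data. Replicates are titled biological with no culture or animal named, so p-values measure the spread between these samples. Members and the 32 gene lists were chosen with earlier results of these data known. Named genes are the 12 largest rises and falls (6 against P6) among called genes without overlap and at or above the median level, up to 4 called genes per list by smallest p, and all members of 4 lists. Unnamed transcripts were passed over, other list members are given where they did not pass, and Syt4, Snap25, Atf4, Jag2, Rfng, Grin2d, Slit3, Plxnb2, Nkx2-2, Nsdhl, Pfkp, Pmaip1, Ccng1, Perp, Asns, Chac1, Atf3, Aars, Tagln, Mgp, Olig1, Fabp7, Sox10, Cntn1, Pdk1, Bnip3 and Prm1 were named after their values were seen. Over all genes, deviations of replicates 1 and 2 of SMB21, SMB55 and SMB56 correlated with those of the same-numbered P6 arrays at -0.05, 0.06 and 0.01, so the numbers were not taken to pair SMB and P6 arrays. Between lines they correlated at 0.50 for SMB55 with SMB56, 0.06 for SMB21 with SMB55 and -0.11 for SMB21 with SMB56, and most glycolysis and hypoxia genes were lowest in replicate 1 of each line. Alternatives changed the offset, filter, centring, normalization, probe set rule, model and the arrays used. Promoter sequences come from RefSeq, GRCm38.p6.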

Additional observations from a re-analysis of the deposited data

Results flagged for a closer look

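In 15 of 166 named genes SMB21 parental replicate 1 stood apart from the other 3 SMB21 arrays, beyond Dixon's critical value for 4 arrays. No other SMB21 array did. Chance would give about 1 in 20 for arrays that are alike, and the share over all genes was not computed. SMB21 replicate 1 lay more than 2-fold from the other SMB21 arrays in 728 of all genes, so the flags do not single out the named genes. Its level was higher for Aqp4 (6.63), Gabrg1 (6.58), Hsd11b2 (10.47), Ndufb5 (13.04), Neurod1 (12.32), Neurod2 (8.92), Sox1 (7.54), Stmn2 (8.67), Sufu (10.39) and Syp (7.98). It was lower for Cdkn2d (10.22), Fdps (11.47), Ndufa1 (12.85), Nek2 (9.18) and Slc6a13 (5.75). For Neurod1 the other arrays lay between 9.58 and 9.97, for Stmn2 between 6.24 and 6.63, and for Sufu between 9.40 and 9.54.

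For 3 genes all arrays of a line lay above every cerebellum and all arrays of another line lay below, and these differences between lines were not tested. Cdkn1b, the inhibitor p27Kip1, was above in SMB55 and below in SMB56, and the line means were 0.75 apart. Cdkn2d, the inhibitor p19Ink4d, was above in SMB55 and below in SMB21, with means 0.76 apart. Nog was above in SMB21 and below in SMB56, with means 0.29 apart, near the bottom of the range.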

How the results depend on the processing

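The probe intensities near the low end limit folds there, and 3 lines against 2 or 3 cerebella limit the calls. Of 242 called list and named genes, 142 kept their call against normal cerebellum in every alternative that tested them, 28 lost it in 1 to 3 and 72 in more. There were at most 20 alternatives per gene. Genes below the median level were not tested in the setting limited to genes at or above it.

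The number of genes called against normal cerebellum was 2800. It was 1477 with genes at or above the median level only, 4542 against the adult alone, 1955 and 1890 without P6 replicate 1 or 2, and 1646 to 2184 with a line left out. An offset of 1 or 64 gave 2851 or 2674, centring on all probe sets 2483, centring on the genes tested (chosen after the data were seen) 2456 and quantile normalization 2629. The mean of probe sets gave 3116, the compared groups alone 1903, a prior that follows the level 2833, the line as a random block 3460 and the P6 pair as 1 sample 1907. Against P6 the number was 3176, with 1648 above the median level, 970 and 981 without a P6 array and 2394 to 3127 with a line left out. The other settings gave 2484 to 3509 against P6.

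With the replicate block, replicates 1 and 2 of each line paired with the same-numbered P6 arrays and each array an observation, 2300 genes were called against P6 and 2408 without it. Leaving aside the adult array, the named and list genes that turned direction and were called before or after the turn were Slc32a1, Fdft1 and Slc1a2. Slc32a1 turned with the mean of its probe sets (-2.38, and -2.04 against P6), and Fdft1 likewise against P6 (0.38). Slc1a2 turned against P6 alone (0.73). Against the adult array, given without a test, Dcx (3.40), Elavl2 (1.16) and Stx1a (1.40) also turned from their direction against all cerebella. The cause was not tested. Keeping genes at or above the median level left 6 microglia and 3 endothelium genes called lower in place of 16 and 12, since it tests fewer genes.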
